A study of Mus musculus with 4 samples.

Results

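CL against cold in adipocytes on day 3 was compared in inguinal white adipose tissue (iWAT) of mice by single-nucleus ATAC-seq (snATAC-seq), which marks open chromatin in each nucleus through the insertions of the Tn5 transposase. The nuclei compared were those that the deposited annotation names white or beige adipocytes in 3 mice given CL for 3 days (day3CL) and in 3 mice kept in the cold for 3 days (day3C). They numbered 2692 of the 7004 adipocyte nuclei and of the 32552 nuclei of all 21 mice. All mice were male C57BL/6 mice of 8 weeks that had been kept at room temperature (RT, 22 °C). CL is CL-316,243, a selective agonist of the β3-adrenergic receptor (Adrb3), given at 1 mg/kg to mice that stayed at RT, and the labels give the cold as 6.5 °C. No group received vehicle alone, so CL and cold differed in the drug, its injection and the temperature at once. The remaining groups, of 3 mice each, were an untreated group at RT (day0RT, 637 adipocyte nuclei) and mice given CL or cold for 1 day (1596 nuclei) or 7 days (2079 nuclei). The day 1 CL mice held 29, 68 and 654 of these nuclei, so day 1 values rest on thin libraries in the first and second of them.

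Cold is sensed by the skin and reaches fat through sympathetic nerves, which release noradrenaline onto Adrb3 of adipocytes, and CL acts on the same receptor directly. The receptor raises cAMP, which drives lipolysis and, over days, the appearance of beige adipocytes that carry uncoupling protein 1 (*Ucp1*) and burn fuel for heat. Cold further changes hormones and appetite in the whole animal, whereas CL leaves the ambient temperature as it was. Adipocytes of a beiging depot break down stored triglyceride and at the same time make fatty acids anew from glucose, a route called de novo lipogenesis (DNL).

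The day3CL mice contributed 205, 933 and 408 adipocyte nuclei, of which 43, 86 and 34 were annotated as beige, and the day3C mice 709, 228 and 209 nuclei, of which 105, 30 and 18 were beige. A count is 1 nucleus in which a peak held reads, and the counts of all peaks summed to 575139, 3734498 and 2277058 in day3CL and 4279964, 830976 and 1143831 in day3C. The second day3CL mouse and the first day3C mouse were thus the deepest of their groups. The beige share of adipocyte nuclei was 12.8% ± 7.07 (SD, n = 3) in day3CL and 12.2% ± 3.21 (SD, n = 3) in day3C, with overlapping mice (two-sided exact permutation p = 0.9, where 0.1 is the smallest that 3 against 3 mice allow). Lymphocytes made up 14.1% to 75.6% of all nuclei of the day3CL mice and 36.8% to 78.5% of those of the day3C mice. The lowest share of each group was that of its deepest mouse. No barcode of an adipocyte nucleus was shared among the 6 mice, although 4218 of 28031 distinct barcodes occurred in 2 or more of the 21 mice.

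The label of the nuclei was checked with marker lists. The 10 adipocyte markers, among them *Pparg* and *Adipoq*, summed to 2740 to 3010 CPM (counts scaled to the same library total in every mouse) in day3CL and 2740 to 3160 CPM in day3C, against 363 CPM in pooled B cells. None of the 10 passed the threshold between the groups. The 18 lymphocyte markers summed to 349 to 367 CPM in day3CL and 360 to 450 CPM in day3C, against 3080 CPM in B cells, and the 13 myeloid markers to 188 to 206 CPM and 224 to 289 CPM, against 1310 CPM in macrophages. None of the immune markers that could be tested passed (10 lymphocyte and 6 myeloid genes), no list had all its members at 0, and the ranges of the myeloid sum did not overlap. The part of this myeloid signal in the results was not tested.

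For each gene, counts were added over the peaks in its body or up to 2000 bases before its start, and this accessibility is given in CPM scaled by TMM factors, which correct for library composition. Counts of white and beige nuclei were added, so a change in their mix and a change within either cannot be told apart in these sums. Of 14429 genes tested by edgeR's quasi-likelihood test with Benjamini-Hochberg adjustment, 146 were more accessible in day3CL (1.01% of the genes tested) and 64 in day3C (0.444%). Among 47835 single peaks, 558 were higher in day3CL (1.17%) and 297 in day3C (0.621%). The 3 and 3 mice did not overlap at 178 of the 210 genes, against 15.6% of all genes tested, and at 670 of the 855 peaks, against 16.0% of all peaks. Of the peaks higher in day3CL, 47% lay in introns and 39.1% between genes, against 39.7% and 30.8% of all tested peaks. Only 5.38% lay within promoters, against 23.6% of all tested peaks. Of the peaks higher in day3C, 12.5% were promoters.

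These totals rested strongly on the deepest mice, which also had the lowest lymphocyte shares of their groups. Without the second day3CL mouse 31 genes and 64 peaks passed, and without the first day3C mouse 103 genes and 324 peaks. Leaving a mouse out cannot tell its depth from its mix of nuclei. DESeq2 called 17 genes and 10 peaks. In each of the 6 fits that left out 1 day 3 mouse, 14 genes were called. Those higher in day3CL were *Scd2*, *Cyp2d22*, *Gss*, *Hcls1*, *Npc2*, *Rgs2*, *Rnf144b*, *Acaca*, *Bicd2*, *Vps50*, *Dagla* and *Foxo1*, and those higher in day3C were *Ednra* and *Lrp3*. All 14 were also called by limma-voom, which was chosen after seeing the data, and so were the 38 peaks that passed in all 6 fits. DESeq2 called the 14 except *Scd2*, *Rgs2* and *Vps50*, and of the 38 peaks only the 10 given above.

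Fatty acid synthesis was the listed group with the most genes more accessible in CL. Of 28 tested lipogenesis genes, 8 were higher in day3CL and 1, *Elovl5*, was higher in day3C, where 1.01% and 0.444% of all genes tested were, with a median log2 difference over the list of 0.14, CL minus cold, against 0.00 over all genes. Those higher were *Acly*, *Acss2*, *Acaca*, *Scd1*, *Scd2*, *Elovl6*, *Lpin1* and *Pnpla3*. With DESeq2, *Acaca* alone of these 8 passed (adjusted p = 0.00347). *Scd2* came next (0.0518), and *Elovl5* did not pass either (0.316). *Fasn*, the fatty acid synthase, did not pass (0.23, adjusted p = 0.458), and neither did the transcription factor genes of the route, *Srebf1* (−0.09, adjusted p = 0.778) and *Mlxipl*, which encodes ChREBP (−0.15, adjusted p = 0.618).

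*Acly* (chromosome 11 from 100476353 to 100528000) encodes ATP citrate lyase, which makes cytosolic acetyl-CoA from citrate. Its accessibility was 363, 301 and 186 CPM in the 3 day3CL mice and 179, 179 and 127 CPM in the 3 day3C mice. The groups did not overlap, although the third day3CL mouse was close to the cold mice. The log2 difference was 0.71 (standard error 0.14, adjusted p = 0.00107), with 92.4 CPM ± 8.67 (SD, n = 3) on day 0. *Acss2* (chromosome 2 from 155517948 to 155585724), which makes acetyl-CoA from acetate, had 246, 313 and 232 CPM in day3CL and 142, 170 and 183 CPM in day3C. Every CL mouse was above every cold mouse (0.76, standard error 0.13, adjusted p = 5.72e-05). *Gss*, the neighbouring gene of glutathione synthesis, shares 8 of its 10 peaks with *Acss2*, so its higher value (0.85, adjusted p = 9.05e-06) cannot be told apart from that of *Acss2*.

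*Acaca* (chromosome 11 from 84129672 to 84401651) encodes acetyl-CoA carboxylase, which commits acetyl-CoA to fatty acid synthesis as malonyl-CoA. It had 813, 925 and 638 CPM in day3CL and 533, 506 and 457 CPM in day3C. All CL mice were above all cold mice, and the day 0 level was lower than either, at 376 CPM ± 10.2 (SD, n = 3). The log2 difference was 0.66 (standard error 0.10, adjusted p = 2.1e-05). In promoter peaks alone the value was −0.07 (adjusted p = 0.966), so the difference lay outside the promoter.

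The stearoyl-CoA desaturases, which turn saturated into monounsaturated fatty acids, lie side by side on chromosome 19. *Scd1* (44394455 to 44407879) had 410, 493 and 333 CPM in day3CL and 238, 182 and 324 CPM in day3C. It was again without overlap, although the third mice of the groups were close. Its log2 difference was 0.74 (standard error 0.12, adjusted p = 7.69e-05). *Scd2* (44293674 to 44306864) had 78.4, 101 and 78.9 CPM in day3CL and 50.3, 51.6 and 35.2 CPM in day3C. Its mice were more clearly apart (0.93, standard error 0.14, adjusted p = 9.05e-06), and *Scd3* stood at 1.02 (adjusted p = 0.0178). No peak was counted for more than 1 of these 3 genes.

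Further along the route, *Elovl6*, the elongase of C16 fatty acids, barely passed. It had 479, 369 and 289 CPM in day3CL and 266, 270 and 270 CPM in day3C (log2 difference 0.43, adjusted p = 0.0489). *Lpin1*, a phosphatidate phosphatase of triglyceride synthesis, stood at 0.39 (adjusted p = 0.0187), but at −0.36 in its promoter peaks alone (adjusted p = 0.747). *Pnpla3*, which acts on lipid droplets, stood at 0.50 (adjusted p = 0.0131). *Elovl5*, an elongase of polyunsaturated fatty acids, went the other way, with 206, 162 and 156 CPM in day3CL and 215, 241 and 231 CPM in day3C (−0.44, adjusted p = 0.0187). Without the second day3CL mouse, *Acaca* (adjusted p = 0.0308) and *Scd2* (0.0329) still passed, while *Acss2* (0.0614), *Scd1* (0.0776), *Acly* (0.126), *Scd3* (0.14), *Elovl5* (0.274), *Elovl6* (0.287), *Pnpla3* (0.353) and *Lpin1* (0.477) did not.

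Both groups were also set against day 0, which they share as a reference. The order of CL and cold then follows from the difference by which these genes were called, so the values describe each group's distance from day 0 only. *Acly* was 1.51 above day 0 on the log2 scale in day3CL (adjusted p = 1.27e-08) and 0.81 above it in day3C (adjusted p = 0.0153). *Acaca* was 1.07 above it in day3CL (adjusted p = 5.48e-10) and 0.41 in day3C (adjusted p = 0.0549). *Scd1* was 0.77 above it in day3CL (adjusted p = 1.78e-04) and 0.03 in day3C (adjusted p = 0.968). *Elovl5*, by contrast, was 0.41 above day 0 in day3CL (adjusted p = 0.0865) and 0.85 above it in day3C (adjusted p = 1.31e-04).

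**Figure D1:**
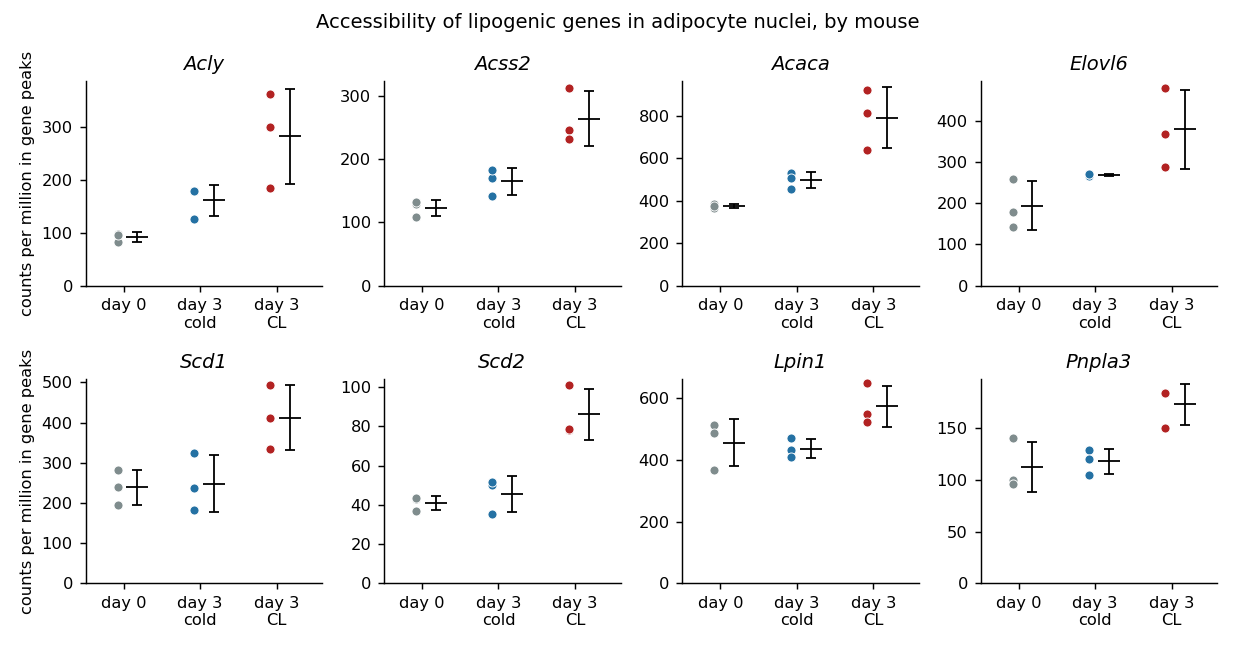
Accessibility of the 8 lipogenesis genes that were higher in CL, in CPM over the peaks of each gene (y axis, from 0), for the 3 mice each of day 0, day 3 of cold and day 3 of CL. Points are mice, and the horizontal bar with whiskers is the mean ± SD; in every panel the 3 CL mice lie above the 3 cold mice, as at *Acaca*, where CL reached 638 to 925 CPM and cold 457 to 533 CPM.

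The difference at *Acaca* was spread over many peaks in the later part of the gene. Of 36 tested peaks nearest to it, 21 were higher in day3CL and 1 was higher in day3C. The first that was higher in day3CL lay 108 kb after the gene start in a gene of 272 kb. That point was set by these calls, so the 10 tested peaks before it hold none higher in CL by definition. All 26 from there on had positive differences. Of the 21, 17 lay inside the gene and 4 beyond its end. The 21 peaks together had 231, 402 and 278 CPM (here of all peak counts, without TMM factors) in day3CL and 97.9, 110 and 77.8 CPM in day3C, 3.19 times as many. Since these peaks were chosen by this difference, the sums are a description. In B cell nuclei, which played no part in the choice, the same peaks had 22.5, 33.2 and 22.0 CPM in the day3CL mice and 27.0, 20.7 and 29.2 CPM in the day3C mice, a ratio of 1.01. These B cell values rest on only 13, 5 and 27 counts in day3CL and 26, 23 and 37 in day3C. The ratio therefore cannot show that B cells did not differ.

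Other loci, likewise chosen after their values were seen, had several called peaks as well. Of the 8 tested peaks nearest to *Acly*, 6 were higher in day3CL, as were 7 of 21 at *Scd1* and 3 of 7 at *Acss2*, with none at these loci higher in day3C. At *Fasn* 1 of 4 was. The share of all tested peaks that were higher in day3CL is 1.17%, as above. *Zbtb16*, a transcription factor gene that responds to glucocorticoids, had 6 of 34 peaks higher in day3CL, while its whole gene did not pass (0.40, adjusted p = 0.0876).

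The largest difference of any named peak lay 5165 bases beyond *Acaca*, at chr11:84406614-84407018. Its level was 19.1, 32.0 and 24.5 CPM in day3CL and 1.96, 5.03 and 2.45 CPM in day3C. The lowest CL mouse was well above the highest cold mouse, a log2 difference of 3.43 (standard error 0.35, adjusted p = 2.14e-17). A neighbour at chr11:84405484-84406159 stood at 2.53 and one in an *Acaca* intron, chr11:84306832-84307397, at 2.44. Beyond the end of *Acly*, the peak at chr11:100475010-100475536 had 50.1, 43.8 and 21.5 CPM in day3CL and 6.84, 6.70 and 11.0 CPM in day3C (2.24, standard error 0.26, adjusted p = 6.14e-14), with 2.45 CPM ± 1.29 (SD, n = 3) on day 0. All CL mice were again above all cold mice. All 4 of these peaks passed in each of the 6 fits that left out 1 mouse. With DESeq2 those at *Acaca* passed, while the one beyond *Acly* did not. The central 300 bases of the first and of the last of them (GRCm38, plus strand, chromosome 11 from 84406666 to 84406965 and from 100475123 to 100475422) are printed because they are named peaks beside 2 genes of the DNL route.
Acaca downstream peak: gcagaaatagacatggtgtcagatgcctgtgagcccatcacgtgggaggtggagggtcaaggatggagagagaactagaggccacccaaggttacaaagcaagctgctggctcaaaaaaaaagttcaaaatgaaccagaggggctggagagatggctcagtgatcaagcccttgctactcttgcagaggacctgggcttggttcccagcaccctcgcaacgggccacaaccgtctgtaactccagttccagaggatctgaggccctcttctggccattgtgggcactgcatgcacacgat
Acly downstream peak: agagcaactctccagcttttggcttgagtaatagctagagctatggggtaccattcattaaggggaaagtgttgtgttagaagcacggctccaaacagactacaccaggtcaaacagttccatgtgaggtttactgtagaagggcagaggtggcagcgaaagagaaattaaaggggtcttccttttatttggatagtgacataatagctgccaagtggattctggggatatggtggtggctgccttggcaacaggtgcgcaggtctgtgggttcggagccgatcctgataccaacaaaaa

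**Figure D2:**
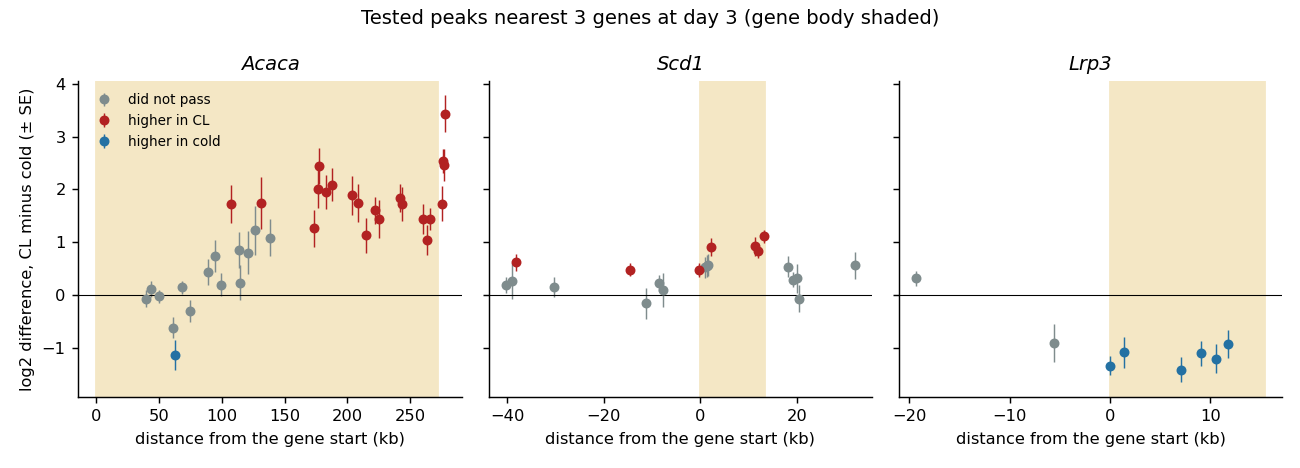
Log2 difference at day 3, CL minus cold, ± standard error (y axis) of each tested peak nearest to *Acaca*, *Scd1* and *Lrp3*, by its distance from the gene start in kb (x axis), with the gene body shaded. At *Acaca* the peaks higher in CL start 108 kb into the gene and run past its end, whereas at *Lrp3* the 6 peaks higher in cold run from the start through the body.

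Beige nuclei on their own could be compared only at thin depth. Of 7353 genes that could be tested in them, 66 were higher in day3CL (0.898%) and 29 in day3C (0.394%). *Scd1* had 311, 431 and 378 CPM in the beige nuclei of the day3CL mice and 71.1, 79.1 and 31.9 CPM in those of the day3C mice, which rest on 26, 115 and 41 counts and on 35, 7 and 3 counts. The log2 difference there was 2.56 (adjusted p = 7.07e-22). *Acly* stood at 1.02 (adjusted p = 2.51e-04), *Acaca* at 0.80 (adjusted p = 1.55e-05) and *Pnpla3* at 1.27 (adjusted p = 5.51e-05) in beige nuclei. *Acss2* also passed (0.80, adjusted p = 0.0138), whereas *Scd2* (0.56, adjusted p = 0.517) and *Lpin1* (0.28, adjusted p = 0.49) did not. *Elovl6* was at −0.19 (adjusted p = 0.693) there, against its positive value in all adipocyte nuclei. Beige nuclei were annotated by clustering the same counts, so which nuclei were called beige may itself depend on such genes, and that was not tested.

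A few further genes in beige nuclei are given that were chosen after their values were seen. *Ppargc1a*, the coactivator of mitochondrial biogenesis, had 156, 124 and 111 CPM in beige nuclei of day3CL and 274, 181 and 160 CPM in those of day3C. The CL mice were all below the cold mice (−0.92, adjusted p = 0.00874), but narrowly, with 156 against 160 CPM for the closest. These values rest on 13, 33 and 12 counts in day3CL and 135, 16 and 15 in day3C. *Ucp1* stood at −1.59 without passing (adjusted p = 0.0583), on 4, 5 and 0 counts in day3CL and 31, 7 and 3 in day3C. *Lep*, the gene of leptin, stood at 1.09 (adjusted p = 0.00415), with 132, 172 and 221 CPM in day3CL and 85.3, 113 and 42.5 CPM in day3C. Its counts were 11, 46 and 24 in day3CL and 42, 10 and 4 in day3C. *Ppargc1a* and *Lep* did not pass over all adipocyte nuclei (adjusted p = 0.654 and 0.483).

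Over all adipocyte nuclei, none of 38 tested thermogenic and beige genes passed, and their median difference was −0.01. *Ucp1* had 13.4, 8.52 and 9.08 CPM in day3CL and 12.3, 12.1 and 9.09 CPM in day3C. These levels overlapped (log2 difference −0.34, standard error 0.31, adjusted p = 0.754). *Cidea*, a lipid droplet protein typical of brown fat, stood at 0.43 (adjusted p = 0.0894) and *Dio2*, which activates thyroid hormone, at −0.45 (adjusted p = 0.167). *Cidea* passed toward CL in white nuclei alone (0.60, adjusted p = 0.00802) and in promoter peaks alone (0.58, adjusted p = 0.0427), but was at 0.02 in beige nuclei alone (adjusted p = 0.993). *Elovl3*, an elongase of brown fat, also passed toward CL in white nuclei alone (0.57, adjusted p = 0.0351), though not over all adipocyte nuclei (0.44, adjusted p = 0.103). None of 27 glycolysis and glucose uptake genes, 20 lipolysis genes, 20 fatty acid oxidation genes, 16 creatine and calcium cycling genes, 25 inflammatory genes or 16 angiogenic genes passed, and the medians of these lists lay between −0.05 and 0.06. With 3 mice a group, a difference that misses the threshold does not show that CL and cold act alike on these genes.

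In cAMP signalling, 1 of 71 tested genes passed in each direction, a share near that of all genes tested (1.01% higher in CL and 0.444% in cold). *Rgs2*, a regulator that shortens G protein signalling and is itself induced by cAMP, had 60.5, 76.4 and 78.3 CPM in day3CL and 45.8, 50.1 and 43.2 CPM in day3C. The mice were apart (0.72, standard error 0.13, adjusted p = 5.53e-04), and the difference in beige nuclei alone was 1.27 (adjusted p = 0.0121). *Adcy5*, an adenylate cyclase that makes cAMP, had 257, 263 and 293 CPM in day3CL and 337, 413 and 444 CPM in day3C (−0.51, standard error 0.11, adjusted p = 0.00256), against 523 CPM ± 54.1 (SD, n = 3) on day 0. It was at 0.24 in beige nuclei alone (adjusted p = 0.748). Without the second day3CL mouse *Adcy5* did not pass (adjusted p = 0.0927), while *Rgs2* did (0.0396). *Adrb3*, the receptor itself, was at 0.02 (adjusted p = 0.987). *Rapgef5*, an exchange factor for Rap GTPases, was higher in cold (−0.51, adjusted p = 0.0253). It was 1 of 131 tested genes in a list of regulators of small GTPases or G proteins, picked by symbol. *Tbc1d2b* and *Rgs2*, which that list also holds, were higher in CL.

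Insulin, glucocorticoid and clock genes held the calls given here, where 1.01% of all genes tested were higher in CL and 0.444% in cold. *Foxo1*, the transcription factor that insulin keeps out of the nucleus, had 338, 392 and 385 CPM in day3CL and 278, 248 and 253 CPM in day3C. No mice overlapped (0.52, standard error 0.10, adjusted p = 4.65e-04). Its promoter peaks alone did not pass (adjusted p = 0.51). *Akt1*, a kinase of the insulin response (−0.47, adjusted p = 0.0161), and *Grb10*, an adaptor that dampens the insulin receptor (−0.39, adjusted p = 0.0354), were higher in cold, together making 3 of 26 insulin signalling genes. Of 17 glucocorticoid receptor and target genes, 1 passed: *Tsc22d3*, the anti-inflammatory target also called GILZ, which stood at 0.40 (adjusted p = 0.0215) with overlapping mice. The median of that list was 0.14 and 13 of its 17 members were positive, with *Fkbp5*, a chaperone of the receptor, at 0.44 (adjusted p = 0.0783). Among 19 clock genes, *Bhlhe40* was higher in cold (−0.64, adjusted p = 0.0174), also with overlapping mice. Without the second day3CL mouse *Foxo1* still passed (adjusted p = 0.032). *Akt1* (0.436), *Grb10* (0.378), *Tsc22d3* (0.548) and *Bhlhe40* (0.173) then did not.

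White adipocyte genes and adipokines held 2 calls of 27, 1 in each direction. Of all genes tested, 1.01% were higher in CL and 0.444% in cold. *Agt*, the precursor of angiotensin, was higher in CL (0.83, adjusted p = 0.027), though it passed in only 2 of the 6 fits that left out 1 mouse. *Lrp3* (chromosome 7 from 35200027 to 35215498), a lipoprotein receptor family member, was the gene with the largest difference toward cold. It had 53.7, 60.7 and 74.9 CPM in day3CL and 149, 147 and 157 CPM in day3C. The cold mice were near the day 0 level of 144 CPM ± 16.0 (SD, n = 3) and the CL mice far below both, with a log2 difference of −1.21 (standard error 0.13, adjusted p = 5.84e-11). Of its 8 tested peaks, 6 were higher in day3C, against 0.621% of all tested peaks. The sums of these 6 peaks are a description, since the peaks were chosen by this difference in the same nuclei. In white nuclei the sum in day3CL was 0.418 times that in day3C. In beige nuclei it was 0.197 times, on only 1, 6 and 1 counts in day3CL and 28, 8 and 7 in day3C. *Foxo1* was also the only call among 37 adipogenic transcription factors.

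Outside the lists, *Ednra* (chromosome 8 from 77663031 to 77724464), the endothelin receptor of type A, was higher in cold. Its values were 53.7, 75.7 and 76.1 CPM in day3CL and 125, 112 and 156 CPM in day3C, without overlap. The log2 difference was −0.83 (standard error 0.12, adjusted p = 2.19e-06), and day 0 stood at 82.9 CPM. *Txnip*, a thioredoxin-binding protein that restrains glucose uptake, had 154, 113 and 140 CPM in day3CL and 223, 196 and 198 CPM in day3C. Here cold was near day 0 (226 CPM) and CL below it, with a difference of −0.70 (standard error 0.12, adjusted p = 2.42e-04) and 8 of 15 tested peaks higher in day3C. *Ptgfr*, the receptor of prostaglandin F2α, which restrains fat cell formation, had 8.96, 17.4 and 23.8 CPM in day3CL and 34.9, 41.0 and 34.1 CPM in day3C (−0.91, adjusted p = 0.00123). The other genes that the naming rule gave on this side were *Dazl*, *Unc45b*, *Simc1*, *Pigr*, *Tctex1d4*, *Cdcp2* and the pair *Eif4ebp3* and AC115631.1, whose peaks are the same. Their log2 differences ran from −0.69 to −0.89.

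Genes on the CL side that the rule gave included *Btn1a1*, *Ntsr1*, *Safb*, *Hsbp1l1*, *Sparcl1*, *Scd3*, *Nyx*, *Cgref1*, *Sh2d2a*, *Lefty1* and *Scd2*, with log2 differences from 0.93 to 1.16. *Btn1a1*, a butyrophilin known from milk fat globules, headed them with 31.3, 48.7 and 27.8 CPM in day3CL and 19.0, 12.1 and 17.0 CPM in day3C (1.16, standard error 0.20, adjusted p = 1.13e-04). It lies on chromosome 13 among tRNA genes, which are described further on. Most of its counts come from peaks that overlap such genes. These are chr13:23463362-23463933 with a tRNA-Glu gene and chr13:23466886-23467318 with a tRNA-Tyr gene. They averaged 20.67 and 22.83 counts of the 47.67 of *Btn1a1*, so its difference cannot be told apart from theirs. Its CL mice were all above its cold mice. Most of these genes rest on few counts. Of the genes listed here, *Scd2* alone passed without the second day3CL mouse, and of those higher in cold *Lrp3* and *Ednra* alone.

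Some of the 14 genes that passed whichever mouse was left out are known in lipid handling. *Npc2* encodes a cholesterol carrier of lysosomes and had 128, 114 and 94.2 CPM in day3CL and 69.2, 62.3 and 54.5 CPM in day3C (0.74, adjusted p = 4.1e-05). *Dagla* makes the endocannabinoid 2-arachidonoylglycerol and had 311, 297 and 278 CPM in day3CL and 210, 185 and 197 CPM in day3C (0.55, adjusted p = 2.62e-04). Both were free of overlap. *Cyp2d22*, a cytochrome P450, stood at 0.89 (adjusted p = 9.05e-06), with 91.8, 97.0 and 82.9 CPM in day3CL and 55.4, 47.1 and 30.7 CPM in day3C. Among the markers of other cell types, *Myh11* of smooth muscle (0.56, adjusted p = 0.00158) and *Egfl7* of endothelium (0.57, adjusted p = 0.0178) were higher in day3CL. They were 1 of 10 stromal and 1 of 6 endothelial markers, where 1.01% of all genes tested were higher in day3CL. Neither passed without the second day3CL mouse (adjusted p = 0.11 and 0.483). *Egfl7* was the only 1 of the 6 endothelial markers with a positive difference, and the median of that list was −0.09. Of the 10 stromal markers 5 were positive, with a median of 0.02. No muscle or epithelial marker passed. The endothelial list summed to 345 to 412 CPM in day3CL and 306 to 410 CPM in day3C.

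A STAT motif was in a larger share of the peaks higher in cold than of all tested peaks. STAT proteins are transcription factors that cytokine and growth hormone receptors switch on through JAK kinases, and they bind paired TTC and GAA letters. The letters TTCNNGGAA, read on both strands in the central 300 bases of each peak, were in 105 of the 297 peaks higher in day3C (35.4%), in 25 of the 558 peaks higher in day3CL (4.48%) and in 5.93% of all 47835 tested peaks. Outside promoters the shares were 38.1%, 4.17% and 6.51%. The wider pattern TTCNNNGAA, which contains the first and was added after the data were seen, was in 46.1%, 7.71% and 9.92%. The motif is described at length because it stood furthest from the background of the motifs searched, and a match is a description of the letters.

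The share with the motif was larger the further a peak lay toward cold. It was 61.8% of the 34 tested peaks with a log2 difference under −1.5, 29.1% of the 234 between −1.5 and −1, 13.8% between −1 and −0.5 and 6.36% between −0.5 and 0. On the CL side it ran from 4.46% between 0 and 0.5 down to 2.9% of the 69 above 1.5. Without the second day3CL mouse 17 peaks were higher in day3C and 9 of them held the motif (52.9%), and limma-voom gave 139 of 519 (26.8%). On day 1, in other mice, 19 of the 126 peaks higher in cold held it (15.1%), and on day 7 1 of 7 did. Relative to day 0, the 105 peaks had a median of 0.67 in cold and −0.33 in CL, and the 192 peaks higher in cold without it a median of 0.38 and −0.50. All these peaks were chosen for being higher in cold, so the order of cold and CL follows from that choice.

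**Figure D3:**
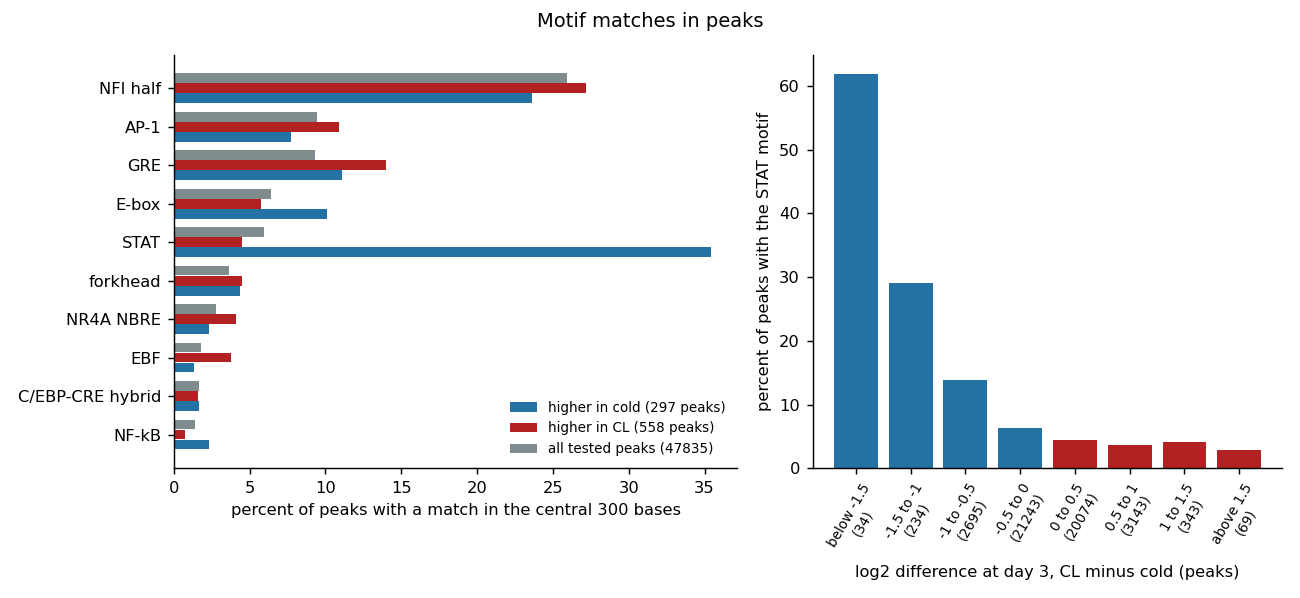
Left, the percent of peaks with a match to each motif in the central 300 bases, for peaks higher in cold, peaks higher in CL and all tested peaks, for motifs in at least 1% of all peaks. Right, the percent of tested peaks with the STAT motif by their log2 difference at day 3, CL minus cold, with the number of peaks in each bin in parentheses; it fell from 61.8% at the cold end to 2.9% at the CL end.

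Of the other motifs searched, few stood away from the background. The glucocorticoid response element letters ACANNNTGT were in 14.0% of peaks higher in day3CL, 11.1% of those higher in day3C and 9.32% of all. Outside promoters, which were rarer among the called peaks, these shares were 13.8%, 12.3% and 10.9%. AP-1 (TGANTCA) was in 10.9%, 7.74% and 9.45%, or 11.0%, 8.46% and 11.0% outside promoters. The cAMP response element TGACGTCA was in 0%, 1.01% and 0.792%. The ESRR letters TCAAGGTCA were in 0.358% of peaks higher in day3CL and 2.02% of those higher in day3C, against 0.525% of all, which is 2 and 6 peaks. The E-box CACGTG, bound among others by ChREBP, SREBP and clock proteins, was in 5.73%, 10.1% and 6.43%, and the longer EBF motif in 3.76%, 1.35% and 1.83%.

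Among peaks with a mean of at least 20 counts, the one with the largest difference toward cold lies at the *Ednra* promoter, at chr8:77725406-77725814, centred 1146 bases before the gene start. It had 4.77, 6.10 and 4.91 CPM in day3CL and 21.2, 23.5 and 28.2 CPM in day3C, against 6.06 CPM ± 1.98 (SD, n = 3) on day 0. The cold mice were far above both (−2.03, standard error 0.31, adjusted p = 2.33e-07). An intergenic peak on chromosome 16, chr16:87635516-87636604, had 11.9, 8.77 and 5.52 CPM in day3CL and 20.9, 35.2 and 29.5 CPM in day3C (−1.63, standard error 0.27, adjusted p = 4.42e-06). Downstream of *Cish*, the peak chr9:107308499-107309024 had 7.16, 6.48 and 5.52 CPM in day3CL and 17.3, 28.5 and 19.6 CPM in day3C (−1.63, standard error 0.31, adjusted p = 1.47e-04). In all 3 the groups were apart. Their 119 bases around the motif (GRCm38, plus strand, chromosome 8 from 77725504 to 77725622, chromosome 16 from 87636086 to 87636204 and chromosome 9 from 107308784 to 107308902) are shown with the STAT motif in capitals, which occurs at 2 places in the last.
Ednra promoter peak: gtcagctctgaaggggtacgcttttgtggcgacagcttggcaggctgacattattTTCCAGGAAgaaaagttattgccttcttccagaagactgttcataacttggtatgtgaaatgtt
Chromosome 16 peak: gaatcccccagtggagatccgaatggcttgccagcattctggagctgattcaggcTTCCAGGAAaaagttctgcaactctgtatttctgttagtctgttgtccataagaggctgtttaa
Cish downstream peak: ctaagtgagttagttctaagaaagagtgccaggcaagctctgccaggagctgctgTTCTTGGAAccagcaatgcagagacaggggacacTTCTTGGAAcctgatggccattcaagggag

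Genes known as targets of STAT5 under growth hormone were looked up after this motif had been seen. *Cish*, a feedback inhibitor of STAT5, was higher in cold (−0.59, adjusted p = 0.0226), but its first day3CL mouse overlapped the cold mice, with 76.1, 38.0 and 34.6 CPM in day3CL and 54.8, 77.4 and 68.2 CPM in day3C. *Igf1*, the insulin-like growth factor, had 325, 274 and 272 CPM in day3CL and 357, 490 and 418 CPM in day3C, all of the latter higher (−0.54, standard error 0.11, adjusted p = 0.00105). Of the tested peaks, 3 of 5 at *Cish* and 5 of 19 at *Igf1* were higher in day3C, against 0.621% of all tested peaks. *Socs2* (−0.44, adjusted p = 0.0789) and *Socs3* (−0.43, adjusted p = 0.118), further feedback inhibitors, did not pass. Their mice did not overlap, which held for 15.6% of all genes tested. The factors and receptor themselves were not called, with *Stat5a* at 0.20 (adjusted p = 0.423), *Stat5b* at 0.26 (adjusted p = 0.225), *Jak2* at 0.17 (adjusted p = 0.573) and *Ghr*, the growth hormone receptor, at −0.03 (adjusted p = 0.963).

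A different class of region was higher in CL: transfer RNA (tRNA) genes. These short genes are read by RNA polymerase III, lie in clusters, of which the largest in the mouse is near the histone genes of chromosome 13, and are most active in cells that make much protein. They were looked for after called peaks had been seen to crowd in that cluster. Of 184 deposited peaks that overlap 1 or more of 403 RefSeq tRNA genes, 148 could be tested, and 48 of them were higher in day3CL (32.4%, against 1.17% of all peaks) and 0 in day3C. Of the 148, 130 had a positive difference, with a median of 0.37, against 0.00 over all peaks. Many tRNA genes have near-identical copies, so reads may have been assigned to the wrong copy or dropped by the mapping filter, and single tRNA peaks are uncertain for that reason.

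In the chromosome 13 cluster, from 21024566 to 23890232 in bounds set after the data were seen, 30 of 54 tested tRNA peaks were higher in day3CL. All 54 were positive, with a median of 0.83. The 71 tested peaks without a tRNA gene in the same stretch had a median of 0.02, and 1 of them was higher in day3CL. On the rest of the genome 18 of 94 tRNA peaks were higher in day3CL (19.1%). Here too the second day3CL mouse weighed heavily: without it 5 tRNA peaks passed, without the first day3C mouse 19, in beige nuclei alone 0 and with DESeq2 1, while no setting called any higher in cold.

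Summed over the tRNA peaks, the day3CL mice had 3975, 4526 and 3894 CPM (of all peak counts, without TMM factors) and the day3C mice 3293, 3595 and 3362 CPM. Every CL mouse was above every cold mouse. The sums include the 48 peaks called by this difference, so the separation follows in part from that choice and is a description. Those called peaks alone had 961.5, 1353 and 1025 CPM in day3CL and 621.5, 649.8 and 639.1 CPM in day3C. The day 0 mice had 3510 ± 222 (SD, n = 3) over all tRNA peaks, the day 1 mice a mean of 4820 in CL and 4250 in cold, and the day 7 mice 3390 in CL and 3700 in cold. In B cell nuclei of the same mice the sums were 5411, 5031 and 5175 CPM in day3CL and 4923, 5128 and 5180 in day3C, which overlapped. Relative to day 0 the median over the 148 peaks was 0.42 in CL and 0.04 in cold, and the CL minus cold median was 0.19 on day 1 and −0.16 on day 7.

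Windows of 150 bases around 3 of these genes (GRCm38, plus strand, sequence of the reference) are shown because they stand for the cluster and for the rest of the genome, with the tRNA gene in capitals. The peak chr13:23298446-23299614 holds the genes of a tRNA-Val and a tRNA-Ala and had 16.7, 43.8 and 36.8 CPM in day3CL and 5.54, 3.35 and 7.36 CPM in day3C (log2 difference 2.76, standard error 0.27, adjusted p = 8.06e-20). On chromosome 3, the peak chr3:51358017-51359696 with 2 tRNA-Pro genes had 45.4, 59.5 and 50.9 CPM in day3CL and 24.4, 26.8 and 27.0 CPM in day3C (1.12, standard error 0.16). On chromosome 19, chr19:12009448-12009931 with a tRNA-Lys gene on the minus strand had 43.0, 51.9 and 33.1 CPM in day3CL and 18.9, 11.7 and 22.1 CPM in day3C (1.25, standard error 0.19). In each, all CL mice were above all cold mice. The windows run on chromosome 13 from 23298742 to 23298891, on chromosome 3 from 51358314 to 51358463 and on chromosome 19 from 12009657 to 12009806.
tRNA-Val, chromosome 13: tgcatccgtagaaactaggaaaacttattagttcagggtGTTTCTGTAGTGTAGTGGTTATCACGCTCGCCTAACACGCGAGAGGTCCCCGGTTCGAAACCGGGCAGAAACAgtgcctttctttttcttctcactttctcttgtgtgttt
tRNA-Pro, chromosome 3: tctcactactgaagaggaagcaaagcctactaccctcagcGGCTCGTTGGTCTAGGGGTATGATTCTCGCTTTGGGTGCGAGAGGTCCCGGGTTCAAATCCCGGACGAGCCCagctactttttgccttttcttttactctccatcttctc
tRNA-Lys, chromosome 19: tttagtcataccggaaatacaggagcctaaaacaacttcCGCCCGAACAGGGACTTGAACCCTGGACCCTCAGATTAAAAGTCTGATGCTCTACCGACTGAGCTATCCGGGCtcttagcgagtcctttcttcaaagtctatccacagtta

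**Figure D4:**
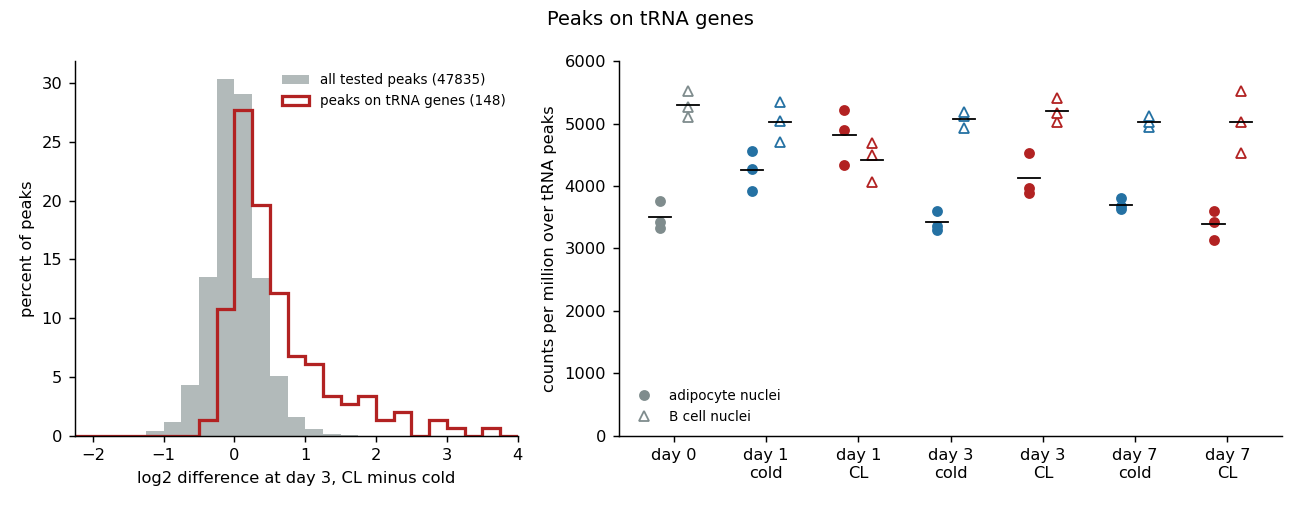
Left, the distribution in percent of the log2 difference at day 3, CL minus cold, over the 148 tested peaks on tRNA genes (outline) and all 47835 tested peaks (grey). Right, the summed CPM over tRNA peaks by mouse and group in adipocyte nuclei (filled circles) and B cell nuclei (open triangles), with the mean as a bar. In adipocyte nuclei the day 3 CL mice lay at 3894 to 4526 and the day 3 cold mice at 3293 to 3595. The sums include the peaks that were called by this day 3 difference.

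The remaining named peaks lay near other genes. A peak in an intron of *Pknox2*, a homeobox gene, at chr9:36946933-36947649, had 26.3, 34.3 and 22.1 CPM in day3CL and 4.24, 3.35 and 1.23 CPM in day3C (2.98, standard error 0.34, adjusted p = 6.14e-14). Day 0 stood at 5.05 CPM ± 4.37 (SD, n = 3), near the cold mice and below all CL mice. Toward cold, the peak chr8:53699404-53700172, 60723 bases from *Neil3*, stood at −1.72, chr13:46152994-46153808 near *Stmnd1* at −1.45, chr9:61033244-61033972 near *Uaca* at −1.42, chr10:25128124-25129004 near *Akap7* at −1.40 and chr10:62546398-62547304 in an intron of *Kif1bp* at −1.35.

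Few of the genes that differed on day 3 passed on days 1 or 7. Of the 210 genes, 15 passed in day1CL against day1C, where 0.922% of all genes did, and 3 in day7CL against day7C, where 0.111% did. The direction was the same for 80% on day 1 and 61.4% on day 7. For the 146 genes higher in CL the day 3 median of 0.56 compares with 0.26 for day 1 and 0.09 for day 7. For the 64 genes higher in cold, −0.55 compares with −0.18 and −0.02, in the same order of days. Both sets were chosen by their day 3 difference, which favours large values on that day and smaller ones in any other mice. The medians therefore cannot show that the difference shrank with time. Days 1 and 7 come from other mice, and day 1 of CL has the thin libraries described above.

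The change of the CL minus cold difference from day 3 to day 7 was tested directly and passed for 38 genes (0.263%), or for 11 without the second day3CL mouse. All 38 had opposite signs on days 3 and 7, which choosing genes by that change favours. Of the 28 lipogenesis genes, 7 were among them, and in all 7 the difference went from positive on day 3 to negative on day 7. Of these, *Scd1* and *Me1* alone passed the threshold on day 7 itself. The 7 were *Scd1*, *Acaca*, *Acss2*, *Scd2*, *Me1*, *Elovl6* and *Acly*. *Scd1* went from 0.74 on day 3 to −0.78 on day 7 (difference −1.52, standard error 0.19, adjusted p = 3.56e-08). On day 1, where the CL mice held 29, 68 and 654 adipocyte nuclei, it had stood at −1.17. Its mean was 170 CPM ± 33.2 in day7CL and 297 CPM ± 52.0 in day7C (SD, n = 3 each). *Acaca* went from 0.66 to −0.45 (difference −1.11, standard error 0.15, adjusted p = 5.55e-07), with 0.00 on day 1. *Me1*, malic enzyme, which supplies NADPH for fatty acid synthesis, had not passed on day 3 (0.36, adjusted p = 0.0949) and stood at −0.50 on day 7 (adjusted p = 0.0462). *Lrp3* went the other way, from −1.21 to 0.09 (difference 1.30, adjusted p = 7.14e-06). Without the second day3CL mouse the change still passed for *Scd1* (adjusted p = 1.62e-05), *Acaca* (1.71e-04), *Lrp3* (8.3e-04) and *Acss2* (0.00841), but not for *Scd2* (0.0636), *Elovl6* (0.0636) or *Acly* (0.27). With DESeq2 it passed for *Acaca* (adjusted p = 2.24e-04) and *Lrp3* (0.0364). It did not pass there for *Scd1* (0.06), *Scd2* (0.626), *Acss2* (0.797), *Elovl6* or *Acly*.

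**Figure D5:**
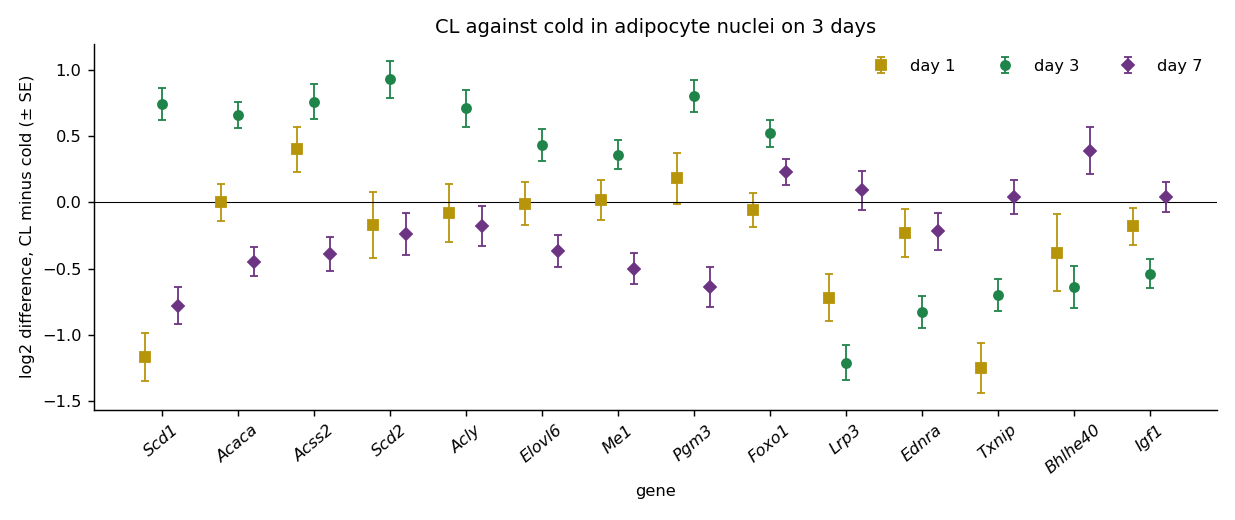
Log2 difference, CL minus cold, ± standard error (y axis) of 14 genes on days 1, 3 and 7, each day from other mice. The lipogenesis genes at the left were above 0 on day 3 and below 0 on day 7, as *Scd1* with 0.74 and −0.78, while *Lrp3* and *Txnip* were lower in CL on days 1 and 3 and near 0 on day 7.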

How the data were processed

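Nuclei from iWAT were profiled by combinatorial barcoding snATAC-seq. According to the study's methods, the authors aligned reads to mm10 with Bowtie2, kept reads of high mapping quality, removed duplicates and doublets, called peaks with MACS2 per cluster and merged them; SAMtools and Signac are also named in the submitters' processing notes. The deposited table is binary: each entry counts 1 nucleus with reads in a peak (65588856 entries of 1 in 189598 peaks and 32552 nuclei). Depth within a nucleus is therefore not kept, and open peaks saturate. GEO's samples are sequencing lanes, so mouse, group and cell type came from the deposited annotation of nuclei, whose clusters were made from the same data.

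Counts of nuclei annotated white or beige adipocyte were summed per mouse (at least 10 nuclei). Genes were 17196 protein coding genes of GENCODE vM21 (GRCm38) with a peak in the body or 2000 bases upstream, and 3.43% of peaks counted for 2 or more genes. All 21 mice entered 1 fit by group in edgeR 4.0.16 (TMM factors, filterByExpr with a minimum count of 10, quasi-likelihood test, two-sided, Benjamini-Hochberg adjustment over all features, threshold 0.05) under R 4.3.3, checked on simulated counts. The simulated counts had the same set spread for all genes. That check therefore cannot show whether the fit understates the spread between real mice. Mice are the replicates, and the binary counts cover counting error only. Alternatives were DESeq2 1.42.0, limma-voom (limma 3.58.1, chosen after seeing the data), other scaling, filters, nuclei, covariates, promoter peaks alone, a replicate block and leaving out each mouse. Exact permutation tests used scipy 1.17.1 under Python 3.11.15.

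Genes named were list genes that passed or served as examples, and the 12 genes and 8 peaks in each direction with the largest difference, taken from calls whose mice did not overlap and that averaged 20 counts or more; 1 of these genes is not reported here. Loci, tRNA genes, STAT5 targets and genes described in beige nuclei were chosen after their values were seen. The members and lists were chosen with earlier results of these data known. Sequences and tRNA genes came from the RefSeq release of GRCm38. Mouse numbers are shared by groups, and the main fit did not pair mice by them. The study's reporting summary states that batches of the experiment were run independently, and whether the number names a batch is not given. The correlations of same-numbered day 3 mice were −0.04, −0.09 and 0.03. Counting error also lowers such values, so they cannot show that no pairing exists.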

Additional observations from a re-analysis of the deposited data

Results flagged for a closer look

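The CL minus cold difference changed between day 3 and day 7, by an interaction term in edgeR's quasi-likelihood test with Benjamini-Hochberg adjustment, for 14 of the genes described above. Values are the log2 difference on day 7 minus that on day 3.

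It was negative for 7 lipogenesis genes, with *Scd1* at −1.52 (adjusted p = 3.56e-08), *Scd2* at −1.16 (adjusted p = 6.07e-04), *Acss2* at −1.15 (adjusted p = 4.24e-05), *Acaca* at −1.11 (adjusted p = 5.55e-07), *Acly* at −0.89 (adjusted p = 0.0223), *Me1* at −0.86 (adjusted p = 0.00142) and *Elovl6* at −0.80 (adjusted p = 0.00913). *Gss*, which shares peaks with *Acss2*, was at −1.37 (adjusted p = 1.6e-06). *Cyp2d22* was at −0.92 (adjusted p = 0.0222) and *Egfl7*, an endothelial marker, at −0.88 (adjusted p = 0.0329).

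It was positive for *Lrp3* (1.30, adjusted p = 7.14e-06), for *Pigr* (1.03, adjusted p = 0.0213), for *Bhlhe40* (1.03, adjusted p = 0.0292) and for *Txnip* (0.73, adjusted p = 0.0435). Without the second day3CL mouse the change passed neither for *Bhlhe40* (adjusted p = 0.125) nor for *Txnip* (0.424). Neither passed with limma-voom (0.23 and 0.0978) or with DESeq2. In promoter peaks alone it passed for *Txnip* (adjusted p = 4.39e-04) but not for *Bhlhe40* (0.551). Days 3 and 7 come from different mice, and groups of 3 mice were not tested for outlying samples.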

How the results depend on the processing

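The count of genes between day3CL and day3C was 210 in the reported fit. It was 93 at an adjusted p under 0.01, 17 with DESeq2, 130 with limma-voom (chosen after seeing the data), 95 in beige nuclei alone and 69 in promoter peaks alone, and ran from 31 to 236 when 1 mouse was left out, lowest without the second day3CL mouse. The 855 peaks became 304 at an adjusted p under 0.01, 10 with DESeq2, 1311 with limma-voom, 352 without a filter on low counts, 12 in beige nuclei alone and 545 with the lymphocyte share as a covariate, and ran from 64 to 876 with 1 mouse left out. The 38 genes whose difference changed from day 3 to day 7 became 17 at an adjusted p under 0.01, 4 with DESeq2, 14 with limma-voom, 59 without a filter, 19 in white nuclei alone and 10 in beige nuclei alone, and ran from 11 to 58 with 1 mouse left out. The replicate block, which treats same-numbered mice as a set, gave 190 genes, 578 peaks and 45 genes for the change over days. The causes were not tested.

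The direction reversed in beige nuclei alone for *Adcy5* (0.24) and *Elovl6* (−0.19), and in promoter peaks alone for *Lpin1* (−0.36), *Acaca* (−0.07) and the change of *Acaca* over days (0.08). The difference in beige share, 0.647 percentage points, was −2.84 in nuclei with at least 2000 counts and ran from −3.43 to 2.91 with 1 mouse left out. Over 69 genes and peaks past the threshold, 1043 alternative values kept direction and side of the threshold, 234 kept the direction and lost the threshold, 44 of them without the second day3CL mouse, and 5 reversed. The beige nuclei numbered 18 to 105 a mouse, which limits the depth behind values from them.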
